A study of Gallus gallus with 5 samples.

Results

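Apoptosis and cell survival genes were examined in DT40, a chicken B cell line from a bursal lymphoma, after deletion of single linker histones. The set holds 35 genes chosen by name: the BCL2 family, caspases, the death receptor complex, inhibitors of apoptosis and their antagonists, mitochondrial death factors, regulators of p53 and proteins of the PDCD group. A member was read from every probe set that the table of probe sets and genes assigned to its symbol alone, which gave 69 of 38439 probe sets for 33 of the 35 members. No probe set carried the symbols BCL2L11 or XIAP in the table used here, and these 2 members were not analysed. Gene expression was measured on 5 Affymetrix arrays: 2 carried the label of an H1R deletion, 1 that of an H1L deletion, and 2 came from wild-type cells (WT). H1L and H1R are variants of histone H1, which binds linker DNA between nucleosomes, and the descriptions mark both deletions as -/-. The study describes RPMI medium with fetal calf and chicken serum for the mutants and RNA from growing cells. How many clones or cultures stand behind a group is not given, so a p-value here covers the variation among these arrays alone, part of which may be technical. By the date code in the descriptions, replicate 1 of H1R belongs with replicate 1 of WT to a first day, and replicate 2 of H1R, the H1L array and replicate 2 of WT belong to a second day.

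Apoptosis is driven from inside the cell by the BCL2 family: BH3-only proteins relieve the block set by BCL2, BCL2L1, BCL2A1 and MCL1, and the effector BAK1 then permeabilises the outer mitochondrial membrane. BOK, a related effector, can permeabilise this membrane too. Released cytochrome c (CYCS) joins APAF1 to activate CASP9, while death receptors such as FAS use FADD to activate CASP8, which CFLAR restrains. The BIRC proteins hold back caspases or act as ubiquitin ligases at death receptors, and B cells are known for depending on this balance during selection.

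Facts of the arrays bear on every value below. A background limit was set on each array at the brightest of 23 controls that match no chicken transcript, and it lay between 18 and 33.6. Actin gave a 3'/5' signal ratio, which rises as RNA degrades, of 3.87 and 2.25 in H1R, 2.01 in H1L, and 2.81 and 2.02 in WT. The same ratio of GAPDH was 1.09 and 1.02 in H1R, 1.04 in H1L, and 0.998 and 1.02 in WT. HIST1H111L read 981.8 and 2372 in H1R, 2295.3 in H1L, and 1320 and 2034.8 in WT. HIST1H111R read 28.9 and 7 in H1R, 42.2 in H1L, and 36.1 and 39.4 in WT. The labels do not tie these gene symbols to the deletions, so neither probe set checks them, and H1R and H1L below mean the arrays so labelled. All 14 B cell markers with a probe set were above the limit on all 5 arrays, among them PAX5, SYK, BTK, LYN and CD79B. Of the markers of other cell types, 2 of 11 T cell, 2 of 10 myeloid, 0 of 6 erythroid and 3 of 13 fibroblast genes were above it on all 5 arrays. The T cell sum was 1610.7 and 1034.2 in H1R, 2304.8 in H1L, and 2606.3 and 4398.3 in WT, and rested mainly on CD3D, at 730.8 to 4040.7. CD4, LCK, ZAP70 and GATA3 were at or below the limit on all arrays. Of the 6 tested T cell genes 3 were higher and 3 lower in H1R than in WT. Among the higher ones, CD5 read 246 and 208.3 in H1R and 229.7 in H1L, against 17.7 and 36.1 in WT. The myeloid sum was 1987.7 and 2248.2 in H1R, 2337.8 in H1L, and 1200.7 and 1818.9 in WT, with CSF3R, MRC1 and TLR4 at or below the limit throughout. It rested mainly on SPI1, at 1462.8 and 1724.2 in H1R, 1361.8 in H1L, and 1030.2 and 1367.2 in WT. MMP9 added 246.2 and 389.1 in H1R and 793.3 in H1L, against 24.1 and 61.2 in WT. Of the 6 tested myeloid genes 4 were higher and 2 lower in H1R than in WT. The fibroblast sum was 687.9 and 890.2 in H1R, 953.5 in H1L, and 1499.4 and 1980 in WT. In H1L and WT it rested mainly on VIM, at 657.9 in H1L and 1276.9 and 1739 in WT, against 74.5 and 128.5 in H1R. The list had no common direction: of its 7 tested genes 4 were higher and 3 lower in H1R than in WT. Among the higher ones, MMP2 read 327.9 and 277.4 in H1R against 9.1 and 3.1 in WT. The erythroid sum was 64.6 and 136.4 in H1R, 102.4 in H1L, and 78.1 and 113.3 in WT. COL5A1, POSTN, DCN, LUM, PDGFRA and ACTA2 of the fibroblast list and HBAD, HBZ, EPB42 and SLC4A1 of the erythroid list were at or below the limit on all arrays. Of all these markers, CD79B and VIM fell and CXCR4, CD5, MMP9 and MMP2 rose in H1R against WT, and MMP9 rose on the array labelled H1L (limma adjusted p under 0.05). The part of these markers and of RNA quality in the results was not tested. In RNA from whole cultures, fewer cells that make a transcript and less of it per cell cannot be told apart.

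Most of the machinery was detected. By the brightest probe set of each gene, 27 of the 33 members were above the background limit on all 5 arrays, 2 on some arrays and 4 on none. Of all 38439 probe sets, 41% to 52.5% were above the limit of a given array. That share counts every probe set on 1 array, so it is not a like measure. The share of all genes by brightest probe set was not computed, so the count does not set the members apart. Signals of different probe sets are not comparable as amounts, so members are set only against this limit and against themselves. The 6 members with the brightest signals were CYCS, PDCD4, BIRC5, PDCD10, AIFM1 and CASP6. CYCS, the electron carrier whose release starts the apoptosome, read 6442.7 and 6977.9 in H1R, 5899.7 in H1L, and 5270.4 and 7080.8 in WT. BIRC5, known as survivin and needed for cell division, read 1395.7 and 1436.8 in H1R, 1739.8 in H1L, and 1266.5 and 1455.9 in WT. AIFM1, a mitochondrial flavoprotein, read 761.7 and 942.1 in H1R, 794.1 in H1L, and 760.6 and 956.9 in WT. In the brightest probe set of each of these 3 genes the H1R and WT arrays overlapped. CASP6, an executioner caspase, overlapped too, with 847.1 and 704 in H1R, 744.2 in H1L, and 646.1 and 765.7 in WT. A dim probe set of AIFM1, above the limit on 1 array, did not overlap. It read 30.5 and 28.6 in H1R, 22.6 in H1L, and 14.8 and 12.8 in WT.

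**Figure D1:**
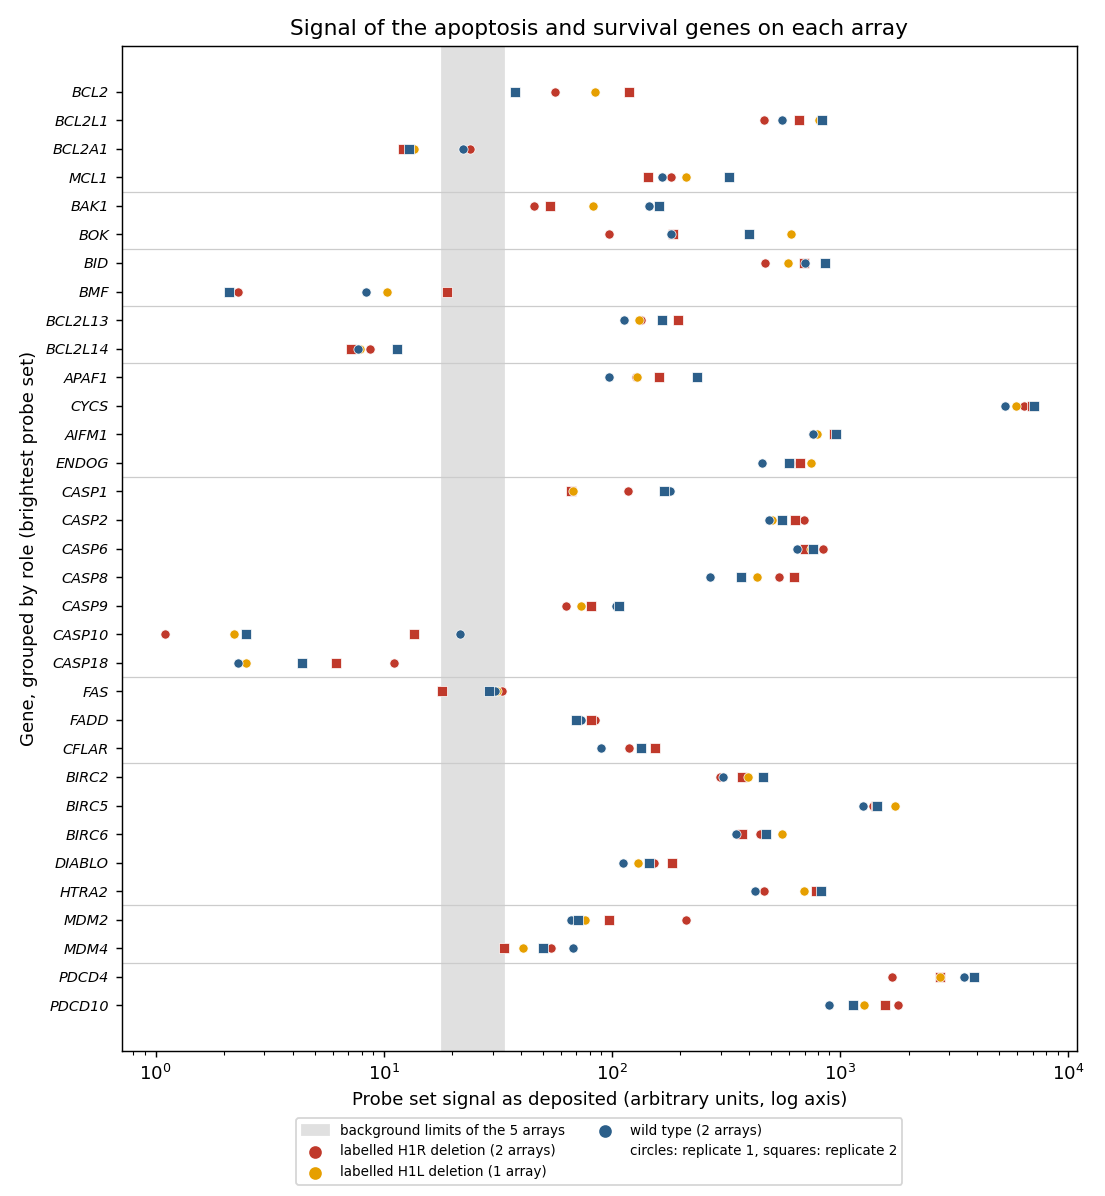
Signal of each of the 33 members with a probe set (rows, grouped by role, brightest probe set) on the 5 arrays, on a log axis in arbitrary units. Circles are replicate 1 and squares replicate 2, and the grey band spans the background limits from 18 to 33.6. BMF, BCL2L14, CASP10 and CASP18 lie at or below their arrays' limits, and 27 members lie above them on all 5 arrays.

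The members at background were BMF, a BH3-only protein, BCL2L14, a BCL2-like protein, and the initiator-type caspases CASP10 and CASP18. On the GRCg7b assembly of the RefSeq gene table, CFLAR, CASP10, CASP18 and CASP8 follow each other in this order among protein-coding genes. CASP8 and CFLAR, at the ends of this row, were above the limit on all 5 arrays, and CASP10 and CASP18, between them, on none. CASP10 read 1.1 and 13.6 in H1R, 2.2 in H1L, and 21.6 and 2.5 in WT, and CASP18 read at most 11.1. BCL2A1, an anti-apoptotic BCL2 protein, exceeded the limit only on replicate 1 of H1R, with 24 against a limit of 18. FAS, the death receptor, was close to the limit with 32.9 and 18.1 in H1R, 31.5 in H1L, and 30.8 and 28.9 in WT. FADD, its adaptor, read 84.8 and 81.4 in H1R, 70.5 in H1L, and 73.5 and 69.6 in WT.

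H1R was first set against WT, to see which of these genes differ after loss of this variant. BAK1 lay lowest and BCL2 and MDM2 highest relative to WT, each by more than 1 on the log2 scale, where 9.27% of genes lay that far from WT, and no member passed the test. A linear model was fitted with limma to log2(signal + 6) of the 22977 probe sets with a mean signal above 13.5, and p-values were adjusted over all of them by the Benjamini-Hochberg method. By brightest probe set, 29 members were tested, and 0 of 29 had an adjusted p under 0.05, where 1.71% of 9944 genes did. Of the 58 tested probe sets of members 0 passed, where 1.17% of all probe sets did. At an unadjusted p under 0.05, 4 members were higher and 3 lower, which is 24.1% of the members, against 12% of all genes (7.56% higher and 4.45% lower). The members' median log2 difference was 0.0149, against 0.118 for all genes, and after quantile normalization it was -0.125, against 0.029 for all genes. Its sign turned with the WT array used: it was -0.175 without replicate 1 of WT and 0.164 without replicate 2, against 0.0053 and 0.218 for all genes. The median size of a member's log2 difference, whatever its sign, was 0.292, against 0.302 for all genes. Both H1R arrays were above both WT arrays for 8 members, or 27.6%, where 28.5% of genes were, and below both for 5 members, or 17.2%, where 14% of genes were. Neither share stood far from that of all genes. With the day as a block, limma called 2 members, BAK1 and PDCD4, and then 5.14% of all genes.

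**Figure D2:**
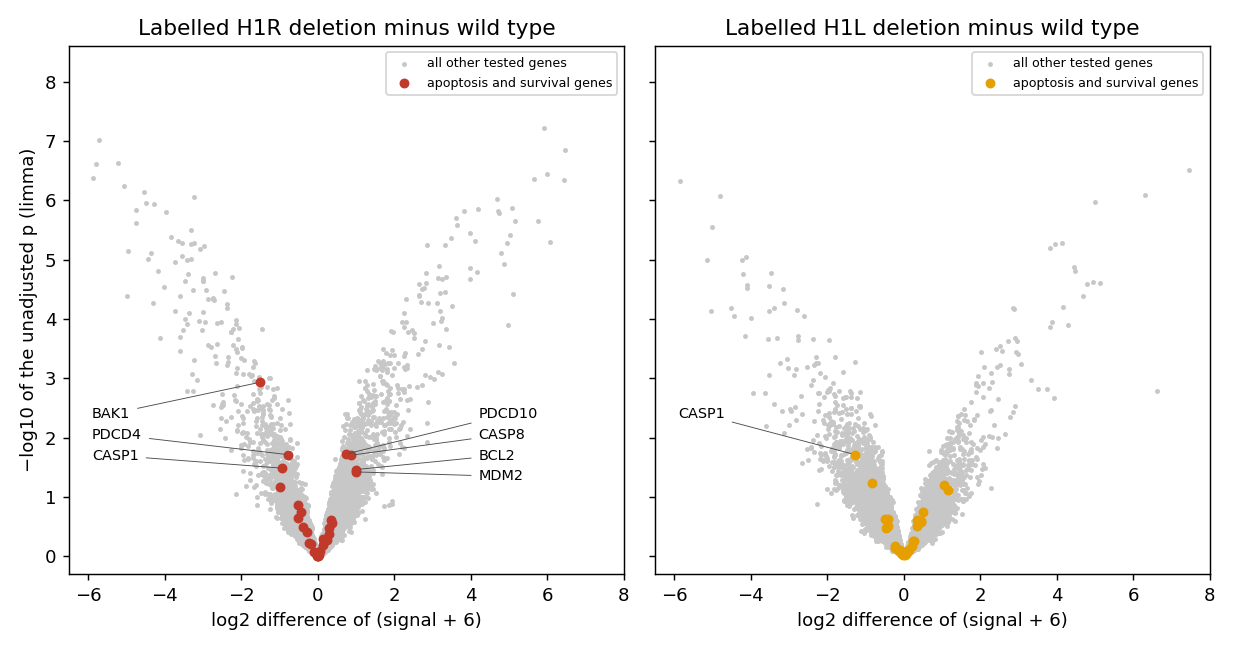
Log2 difference from WT (x axis) against −log10 of the unadjusted limma p (y axis) for the 9944 tested genes, with the 29 tested members in colour, for the arrays labelled H1R (left) and the array labelled H1L (right). Members with an unadjusted p under 0.05 are named, 7 for H1R and 1 for H1L, and all members lie well inside the range of the other genes.

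**Figure D3:**
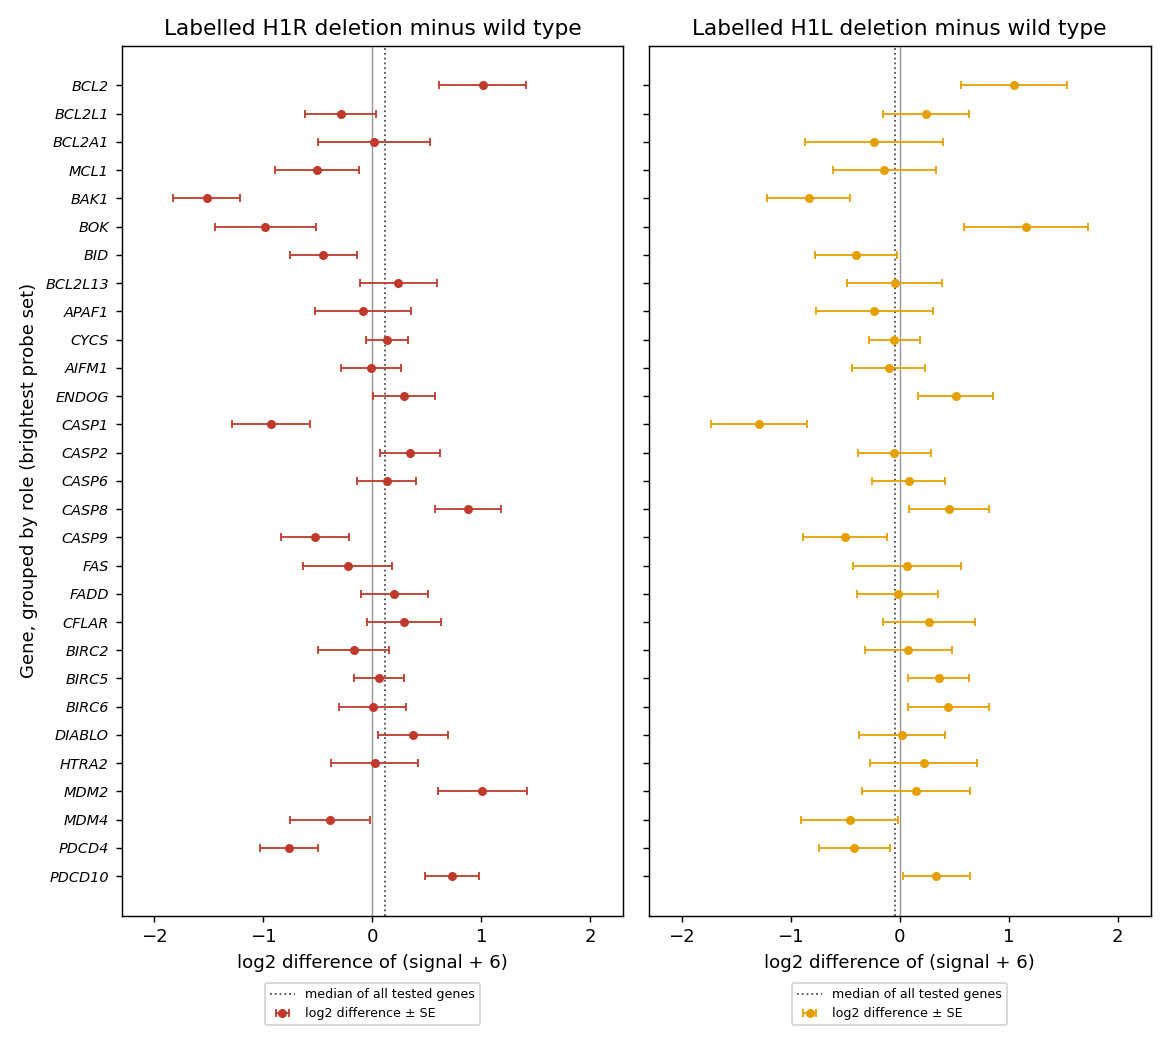
Log2 difference from WT with its standard error for the 29 tested members, grouped by role, for the arrays labelled H1R (left) and the array labelled H1L (right). The dotted line is the median of all tested genes, at 0.118 for H1R and -0.0471 for H1L, and the widest H1R difference is that of BAK1 at -1.52.

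Among the effectors, BAK1 differed most. BAK1, which opens the mitochondrial outer membrane, read 45.6 and 53.7 in H1R, 83.1 in H1L, and 145.3 and 161.2 in WT. Both H1R arrays were low, the array labelled H1L lay between, and the groups did not overlap. The log2 difference of H1R from WT was -1.52 ± 0.31 (SE), a ratio of 0.349, with a limma adjusted p = 0.0767. A second probe set of BAK1 read 25.6 and 42.9 in H1R, 70.6 in H1L, and 94 and 138.2 in WT, with a log2 difference of -1.61 ± 0.37 (limma adjusted p = 0.119). The difference was -1.55 on the first day and -1.49 on the second. With the day as a block BAK1 passed in both probe sets (limma adjusted p = 0.0124 for each), and it also passed after quantile normalization (limma adjusted p = 0.0401), after median scaling (0.0456) and with the probe sets of a gene averaged (0.0407). In these 3 settings 2.2%, 2.08% and 1.91% of all genes passed. The adjusted p over all 13 alternatives ranged from 0.0124 to 0.353, the highest without replicate 1 of WT. BOK, a related effector, read 96.9 and 184.9 in H1R, 610.6 in H1L, and 181.8 and 401 in WT, so that H1R and WT overlapped. Its log2 difference of H1R from WT was -0.98 ± 0.46 (limma adjusted p = 0.539). Within the days, where H1R lay below WT on both, it was -0.87 and -1.09. With the day as a block it was -0.98 ± 0.23 (limma adjusted p = 0.0512). The other probe set of BOK gave -0.0038 ± 0.39, with opposite signs on the days, -0.35 and 0.35.

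The anti-apoptotic BCL2 proteins differed in direction, and none passed. BCL2, the founding member, read 56.4 and 119.2 in H1R, 84.6 in H1L, and 37.8 and 37.8 in WT. All deletion arrays were above WT in this probe set, most of all replicate 2 of H1R, and the log2 difference of H1R from WT was 1.01 ± 0.40 (limma adjusted p = 0.428). Another probe set of BCL2 gave 0.91 ± 0.37. In its dimmest one, with 22.1 and 104.2 in H1R, 22.6 in H1L, and 16 and 21.2 in WT, both WT values were below background, and H1R was at least 1.92-fold higher (limma adjusted p = 0.598). That bound rests on replicate 2 of H1R, since replicate 1, at 22.1, was below the limit of 29.2 of the WT array of its day. Within days the difference of the brightest probe set was 0.51 and 1.52. MCL1, a short-lived survival protein, read 182 and 143.9 in H1R, 210.5 in H1L, and 166.3 and 325 in WT in its brightest probe set. H1R and WT overlapped there, and the log2 difference was 0.13 on the first day and -1.14 on the second. Its probe set with the next brightest signal read 67.7 and 65.6 in H1R, 99 in H1L, and 103.4 and 186.8 in WT, a ratio of H1R to WT of 0.5 (limma adjusted p = 0.375). Another gave a log2 difference of -0.87 ± 0.34 with the same order of groups, and the dimmest one was near background, so the probe sets of MCL1 differ in what they show. BCL2L1, which encodes BCL-xL, had a log2 difference of -0.29 ± 0.32 in its brightest probe set. Its next brightest gave 0.10 ± 0.36, so its sign is not settled.

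BID, a BH3-only protein cut by CASP8, read 468.1 and 694.3 in H1R, 589.2 in H1L, and 706 and 862.9 in WT. The highest H1R value stayed just under the lowest WT value, and the log2 difference was -0.45 ± 0.31 (limma adjusted p = 0.727). BCL2L13, a BCL2-like protein of mitochondria, had a log2 difference of 0.24 ± 0.35.

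Of the 5 tested caspases, CASP8 and CASP1 differed most in H1R, and none passed. CASP8, the initiator of the death receptor pathway, read 543.1 and 626.1 in H1R, 432.4 in H1L, and 268.9 and 367.4 in WT. Both H1R arrays were the highest, the array labelled H1L was next, and no deletion array overlapped WT. The log2 difference of H1R from WT was 0.88 ± 0.30, a ratio of 1.84 (limma adjusted p = 0.336). It was 1.00 and 0.76 within the days. With the day as a block it was 0.88 ± 0.21 (limma adjusted p = 0.0569). CASP1, an inflammatory caspase that processes interleukin-1 beta, read 118 and 66.1 in H1R, 67.7 in H1L, and 179.2 and 168.8 in WT. All deletion arrays were below WT, and the log2 difference of H1R from WT was -0.93 ± 0.36 (limma adjusted p = 0.419). It was -0.58 on the first day and -1.28 on the second, and -0.54 without replicate 2 of H1R. Its other probe set gave -0.30 ± 0.31, also with all deletion arrays below WT. CASP9, the caspase of the apoptosome, read 63.2 and 81.1 in H1R, 73 in H1L, and 104 and 107.4 in WT, a log2 difference of -0.52 ± 0.31 (limma adjusted p = 0.672). CASP2 and CASP6 gave 0.35 ± 0.27 and 0.13 ± 0.27. Their other probe sets gave -0.08 ± 0.31 and 0.26 ± 0.43.

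In the death receptor complex and among the mitochondrial factors no unadjusted p was under 0.05. CFLAR, FADD and FAS had log2 differences of H1R from WT of 0.29 ± 0.34, 0.20 ± 0.31 and -0.23 ± 0.41. The other tested probe sets of CFLAR gave -0.02 ± 0.32 and 0.21 ± 0.44, and that of FADD, near background, -0.79 ± 0.67. APAF1, the scaffold of the apoptosome, had -0.09 ± 0.44, and its signals of 127.7 and 160.4 in H1R lay between those of 97.4 and 236.8 in WT. The other tested probe sets of APAF1 gave -0.26 ± 0.48 and -0.65 ± 0.49. ENDOG, a mitochondrial nuclease, read 609.4 and 669.4 in H1R, 744.8 in H1L, and 454 and 596.8 in WT. All deletion arrays were above WT, by a log2 difference of 0.29 ± 0.28 for H1R (limma adjusted p = 0.83). Of the 5 tested inhibitors of apoptosis and antagonists, DIABLO differed most. DIABLO, which frees caspases from BIRC proteins, read 153.8 and 183.7 in H1R, 130.2 in H1L, and 112.2 and 146.2 in WT, a log2 difference of 0.38 ± 0.32 (limma adjusted p = 0.797). BIRC2, a ubiquitin ligase at tumour necrosis factor receptors, had -0.17 ± 0.33. BIRC5 had 0.06 ± 0.23, BIRC6, a very large ubiquitin ligase, 0.0015 ± 0.30, and HTRA2, a mitochondrial protease, 0.02 ± 0.40. The other probe sets of BIRC2 gave 0.26 ± 0.33 and 0.37 ± 0.58, and that of BIRC6 gave -0.37 ± 0.32.

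Of the 2 tested p53 regulators 1 had an unadjusted limma p under 0.05, and of the 2 tested PDCD proteins 2 had one, where 12% of all genes did. Groups of 2 genes are too small to be set against that share. These were 3 of the 7 members with such a p. None of the 3 passed the adjusted threshold without the day as a block. MDM2, the ubiquitin ligase that degrades p53 and is itself a p53 target, read 212.2 and 96.9 in H1R, 76.4 in H1L, and 66.1 and 70.8 in WT. The high value was that of replicate 1 of H1R, which also had the highest actin ratio, 3.87. Its GAPDH ratio was also the highest, 1.09 against 0.998 to 1.04 on the other arrays. The part of RNA quality in the MDM2 signal was not tested. The log2 difference was 1.01 ± 0.41 (limma adjusted p = 0.442), and it was 1.60 on the first day and 0.42 on the second. Without replicate 1 of H1R it was 0.47. Its other tested probe set, near background, read 66 and 32.8 in H1R, 37.2 in H1L, and 18.2 and 36.7 in WT, so H1R and WT overlapped in it. MDM4, a partner of MDM2, had -0.39 ± 0.37.

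PDCD4, an inhibitor of the translation factor eIF4A, was measured by 3 probe sets that ordered the arrays alike with respect to WT. The brightest read 1690.2 and 2750.1 in H1R, 2750.3 in H1L, and 3483.6 and 3863.6 in WT. All deletion arrays were below WT, and replicate 1 of H1R was the lowest. The log2 difference of H1R from WT was -0.77 ± 0.26, a ratio of 0.588 (limma adjusted p = 0.335), and the other probe sets gave -0.82 ± 0.31 and -1.15 ± 0.36. It was -1.04 on the first day, -0.49 on the second and -0.41 without replicate 1 of H1R, and with the day as a block the brightest probe set passed (limma adjusted p = 0.0448, with a range over the 13 alternatives of 0.0448 to 0.799). PDCD10, an adaptor of germinal centre kinases also known as CCM3, read 1792.6 and 1575.1 in H1R, 1275.7 in H1L, and 895.4 and 1139.5 in WT. All deletion arrays were above WT, and the log2 difference of H1R from WT was 0.73 ± 0.25 (limma adjusted p = 0.331). Its other probe set read 639.4 and 442.7 in H1R, 301.2 in H1L, and 323.4 and 344.6 in WT, so there the H1R arrays were above WT and the array labelled H1L was not.

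**Figure D4:**
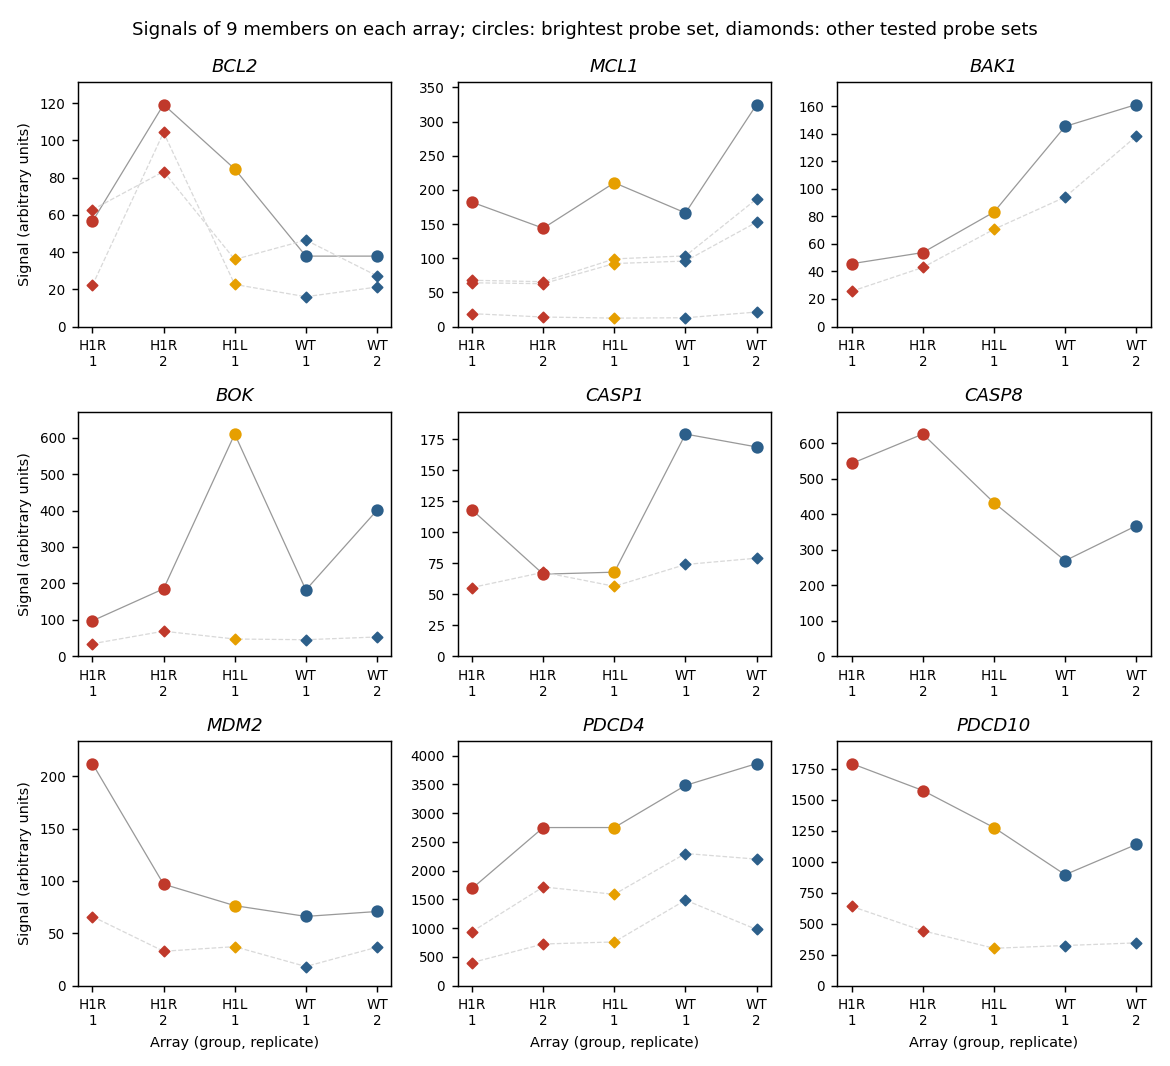
Signal on a linear axis in arbitrary units for the 9 members with an unadjusted p under 0.05 or a log2 difference of at least 1 in a tested probe set of any comparison. Circles are the brightest probe set and diamonds the others, thin lines join the arrays of 1 probe set, and the colours are H1R (red), H1L (orange) and WT (blue). BAK1, CASP1 and PDCD4 are lower on all deletion arrays than in WT in every tested probe set, and BOK is highest on the array labelled H1L in 1 of its 2.

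The 2 days gave the same direction of H1R against WT for 19 of 29 members, 10 higher and 9 lower on both, or 65.5%, where 64% of all genes kept their direction. BAK1 had nearly the same difference on both days, CASP8 and BOK similar ones, and BCL2, MDM2 and MCL1 unlike ones. Of the 20 members with several tested probe sets, 12 had the same sign in all of them for H1R against WT. The 16 tested members with no unadjusted p under 0.05, no log2 difference of at least 1 and none of the 6 brightest signals had log2 differences between -0.52 and 0.38 for H1R, the lowest limma adjusted p being 0.672.

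**Figure D5:**
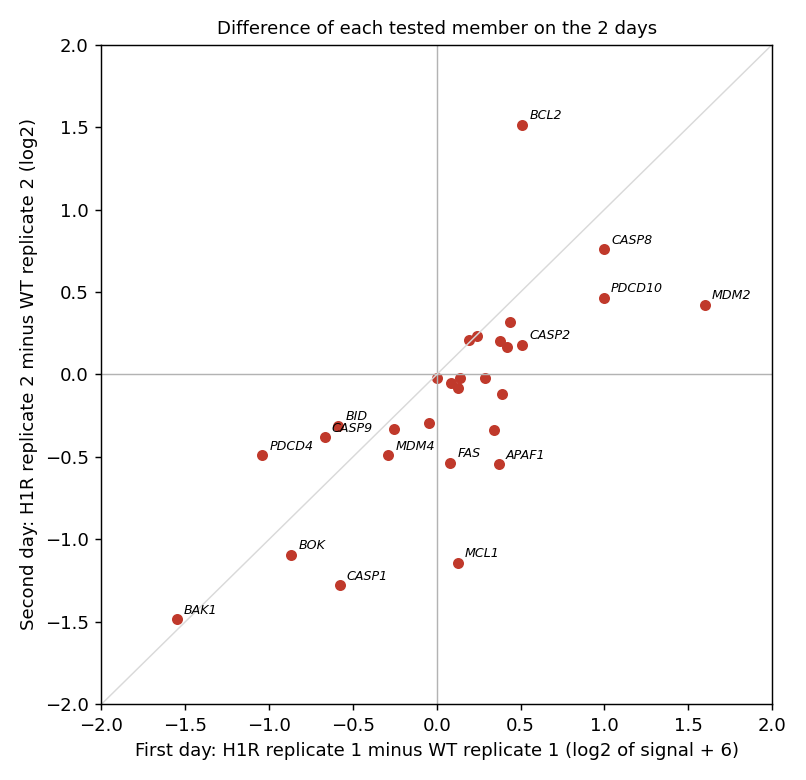
Log2 difference of H1R from WT on the first day (x axis) against the second day (y axis) for the brightest probe set of the 29 tested members, with the line of equal differences in grey. BAK1 lies at -1.55 and -1.49, MDM2 at 1.60 and 0.42, BCL2 at 0.51 and 1.52, and 10 members have opposite signs.

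The array labelled H1L was next set against WT. In the fit without the day, CASP1, BCL2 and BOK differed most, and none passed. With the day as a block the order changed. CASP1 was then at -1.07 ± 0.37, BAK1 at -0.92 ± 0.35, BCL2 at 0.80 ± 0.43 and BOK at 0.66 ± 0.31. PDCD4 at -0.63 ± 0.23, APAF1 at -0.62 ± 0.38 and BID at -0.61 ± 0.27 followed. With 1 array, the test borrows its spread from the H1R and WT pairs, and the WT arrays are those of the comparison above. Of 29 members, 0 had a limma adjusted p under 0.05, where 0.362% of genes did, and 0 of their 58 probe sets did, where 0.2% of all probe sets did. At an unadjusted p under 0.05, 1 member was lower and 0 were higher, or 3.45%, against 7.74% of genes (5.13% lower and 2.61% higher). A log2 difference of at least 1 was seen for 3 members and for 9.48% of genes. The members' median log2 difference was 0.0221, against -0.0471 for all genes. CASP1 had a log2 difference of -1.29 ± 0.44, a ratio of 0.41 (limma adjusted p = 0.588), and -1.25 against the WT array of the same day. The other probe set of CASP1 gave a smaller one, -0.40 ± 0.39. BOK had one of 1.16 ± 0.57 (limma adjusted p = 0.784), or 0.60 within the day, and its other probe set gave -0.05 ± 0.48. BCL2 had one of 1.05 ± 0.49 (limma adjusted p = 0.762), while its other probe sets gave 0.01 ± 0.45 and 0.23 ± 0.75. BAK1 had -0.84 ± 0.38 (limma adjusted p = 0.757), PDCD4 -0.41 ± 0.32, CASP8 0.45 ± 0.37, PDCD10 0.33 ± 0.31 and MDM2 0.15 ± 0.50. The 5 tested inhibitors of apoptosis and antagonists ranged from 0.02 for DIABLO to 0.44 for BIRC6, with the lowest limma adjusted p at 0.925. With the day as a block the sign of DIABLO, BIRC2 and HTRA2 changed, to -0.13 ± 0.33, -0.14 ± 0.29 and -0.20 ± 0.27. Each of these is smaller than its SE, so no direction is set for them. BIRC5 and BIRC6 kept their sign, at 0.30 and 0.40. All 3 deletion arrays were above both WT arrays for BCL2, CASP8, ENDOG, MDM2 and PDCD10, or 17.2% of members, where 15% of genes were. They were below both for BAK1, BID, CASP1, CASP9 and PDCD4, also 17.2%, where 11% of genes were.

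The array labelled H1L was then set directly against H1R. The median gene differed by -0.173 on the deposited scale and by -0.0179 after quantile normalization, so differences are given relative to the median gene. BOK, with 610.6 on the array labelled H1L against 96.9 and 184.9 in H1R, had a relative log2 difference of 2.31 (2.14 ± 0.57 as fitted, limma adjusted p = 0.822, unadjusted p = 0.00536). It was the 1 member of 29 with an unadjusted p under 0.05, or 3.45%, where 5.5% of genes had one (1.29% higher and 4.21% lower), and the 1 member past a fitted log2 difference of 1, as 7.44% of genes were. Against H1R replicate 2, of the same day, the fitted BOK difference was 1.69, and its other probe set, at 46.8 on the array labelled H1L against 33.8 and 68.3 in H1R, had a relative one of 0.13. No member and no probe set of a member passed, and 0.0101% of genes and 0.00435% of probe sets did. BAK1 had a relative log2 difference of 0.86 and MDM2 one of -0.69, neither of which passed (limma adjusted p = 0.893 and 0.894).

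The rest of the pathway was read from 6 further lists of genes, of which 5 genes passed for H1R. The death receptor and tumour necrosis factor list held 3 of them. Of its 18 tested genes 3 fell in H1R and none rose, where 0.875% of genes fell and 0.835% rose. The list was chosen with earlier results of these data known, so these shares do not test an excess. TNFSF10, the death ligand TRAIL, read 100.7 and 150.8 in H1R, 138.8 in H1L, and 639.9 and 551.9 in WT. Every deletion array was far below WT in this probe set, with a log2 difference of H1R from WT of -2.21 ± 0.33 (limma adjusted p = 0.0198). Its 6 tested probe sets differed: another passed in the same direction, with 41.8 and 33.4 in H1R, 68.1 in H1L, and 249 and 187.6 in WT. A dimmer one lay above WT instead, with 67.2 and 65.4 in H1R, 62.9 in H1L, and 50.6 and 48.1 in WT. So did the dimmest tested one, with 15.1 and 27.5 in H1R, 17.9 in H1L, and 4.7 and 4.4 in WT, at or below the background limit on every array. TNFSF10 passed in 7 of 13 alternatives (limma adjusted p from 0.00126 to 0.247). It did not pass when averaged over its probe sets (log2 difference -0.84), without a filter (limma adjusted p = 0.0589) or without a trend (0.07). Nor did it pass without replicate 1 of H1R, replicate 1 of WT or replicate 2 of WT (log2 difference -1.94, -2.11 and -2.32).

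TNFRSF1B, a receptor of tumour necrosis factor, read 26.5 and 18.1 in H1R, 15.9 in H1L, and 306.1 and 144.8 in WT. It was above the limit on 1 deletion array, replicate 1 of H1R, and fell by 2.95 ± 0.42 on the log2 scale in H1R (limma adjusted p = 0.017). In another probe set both H1R arrays were below background, and H1R was at least 4.27-fold lower (limma adjusted p = 0.03). The remaining tested one gave a smaller log2 difference, -1.40 ± 0.42, and did not pass (limma adjusted p = 0.253). By its brightest probe set TNFRSF1B passed in 10 of 13 alternatives. TNFRSF1B did not pass without a filter (limma adjusted p = 0.115), without a trend (0.063) or without replicate 1 of WT (log2 difference -2.43). TNFSF13B, the B cell survival cytokine BAFF, read 20.4 and 16.1 in H1R, 122.5 in H1L, and 1014.7 and 1775.5 in WT. It fell in H1R (limma adjusted p = 0.000912) and passed in all 13 alternatives. The fitted log2 difference was -5.80 ± 0.37, in which replicate 2 of H1R was below its limit of 33.6 and replicate 1 just above its limit of 18. In its other 2 tested probe sets both H1R arrays were below background, and H1R was at least 25-fold and 15.7-fold lower (limma adjusted p = 0.00245 and 0.00126). It also fell on the array labelled H1L, as 0.211% of genes did, and was the 1 gene of the 6 lists that passed there (-3.39 ± 0.45, limma adjusted p = 0.0382, from 0.00316 to 0.17 over the alternatives). That call held in 8 of 13 alternatives and was lost without replicate 1 or replicate 2 of WT (limma adjusted p = 0.112 and 0.16), with a pseudocount of 1 (0.0688), without a filter (0.17) and without a trend (0.149).

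The other two genes rose in H1R. FOXO3, a transcription factor that induces death genes when AKT signalling is low, was 1 of 16 tested genes of the AKT and PIM survival kinase list. It read 92.6 and 361.6 in H1R, 44.5 in H1L, and 18.4 and 4.7 in WT. Both WT values were below background and all deletion arrays above it, so FOXO3 was at least 7.32-fold higher in H1R (limma adjusted p = 0.0485). This bound rests in large part on replicate 2 of H1R, without which the fitted log2 difference was 2.61 against 3.56 with it. Its other 2 tested probe sets were near background, and it passed in 6 of 13 alternatives. It did not pass with averaged probe sets, where the log2 difference was 1.43 (limma adjusted p = 0.146). The call was also lost with a pseudocount of 1 (0.0677), no filter (0.223), the filter at the 60th percentile (0.06) and no trend (0.136). Nor did it hold without replicate 1 or 2 of WT (log2 difference 4.15 and 2.96). STK17A, a death-associated protein kinase, was 1 of 17 tested genes of the PDCD and death kinase list. It read 1483.8 and 1702 in H1R, 1170.8 in H1L, and 212.5 and 486.5 in WT, without overlap, a log2 difference of 2.28 ± 0.39 (limma adjusted p = 0.0371). It passed in 7 of 13 alternatives (limma adjusted p from 0.000722 to 0.146). It did not pass with a pseudocount of 1 (0.0542), without a filter (0.146) or without a trend (0.133). Nor did it pass without replicate 1 of H1R, replicate 2 of H1R or replicate 1 of WT (log2 difference 2.38, 2.18 and 1.70).

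In the other lists, 0 of 19 further BCL2-type and mitochondrial genes, 0 of 11 further caspase and executioner genes and 0 of 21 p53 pathway genes passed for H1R, where 1.71% of all genes did. At an unadjusted limma p under 0.05 these lists held 2, 1 and 1 genes, or 10.5%, 9.09% and 4.76%, against 12% of all genes. In the death receptor, survival kinase and death kinase lists the share was higher, at 33.3%, 25% and 23.5%. None of these shares tests an excess, since the lists were chosen with earlier results known. Their median log2 differences were 0.0844, -0.0012 and 0.126, against 0.118 for all genes, and those of the death receptor, survival kinase and death kinase lists were -0.0436, 0.0961 and 0.193. For H1L against H1R none of the 6 lists held a gene past the threshold in limma, where 0.0101% of all genes passed. At an unadjusted p under 0.05 they held 2 of 19 BCL2-type, 0 of 11 caspase, 2 of 18 death receptor, 1 of 21 p53 pathway, 2 of 16 survival kinase and 0 of 17 death kinase genes, against 5.5% of all genes.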

How the data were processed

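Total RNA of 5 DT40 samples was measured on Affymetrix arrays. The authors deposited 1 linear signal intensity per probe set, made with GCOS per the submitters' processing notes. GCOS's version and scaling target are not given in the sources used here. Their value table names its columns by sample, and groups come from the titles. Direction is that of the signal, genes were not centred, and the scale between arrays is unknown. The column medians were 19.9 and 22.4 (H1R), 19.3 (H1L), and 19.9 and 20.7 (WT).

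The 96 control probe sets were left out. Of 38439 others, 27168 had 1 gene symbol in the platform table, 177 several and 11094 none, and only the first were named. Values were tested as log2(signal + 6), 6 being the 25th percentile of all signals, which understates the folds of dim genes. Those with a mean signal above the 40th percentile, 13.5, were tested with limma 3.58.1 in R 4.3.3 (1 term per group, eBayes with a trend, 2 residual and 6.03 prior degrees of freedom), with Benjamini-Hochberg adjustment at 0.05. The procedure was checked on simulated data. Each gene was represented by its brightest probe set over all 5 arrays. Having 5 arrays limits how precise any value can be.

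The date codes put equal replicate numbers of H1R and WT on 1 day, so the numbers pair these arrays (correlation of their deviations 0.192). No array repeated another (at most 0.859% identical signals). A fold against a group at or below the background limit is given as a lower bound, from mean log2 signals without a pseudocount. The members and lists were chosen with earlier results of these data known, so their shares set against those of all genes do not test an excess. Values on every array were given for members with an unadjusted p under 0.05 or a log2 difference of at least 1 in any tested probe set of any of the 3 comparisons, and for the 6 brightest members. Those of BID, CASP9, CASP10, ENDOG, DIABLO, FADD and FAS were added after they had been seen. Genes of other lists were named where they passed the threshold. The files pair no coordinates with the probe sets.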

Additional observations from a re-analysis of the deposited data

How the results depend on the processing

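The data were refitted under 13 alternatives. These were quantile normalization, median scaling, pseudocounts of 1 and 16, and no filter or one at the 60th percentile. Further ones were eBayes without a trend, the day as a replicate block, averaged probe sets, and each WT or H1R array left out. The members with an unadjusted p under 0.05 kept their direction in every fit. Counted per member and alternative, 5 results moved past the threshold and 112 changed no call. The 5 were BAK1 in 4 alternatives and PDCD4 in 1. For H1R against WT the number of members past the threshold, 0 with all arrays (7 at an unadjusted limma p under 0.05), was 1 after quantile normalization, 1 after median scaling, 1 with averaged probe sets and 2 with the replicate block. For the array labelled H1L, 0 members passed against WT or H1R in any alternative run (0 to 4 at an unadjusted limma p under 0.05). The number of probe sets past the threshold for H1R against WT, 268, was 103 without a filter, 149 without a trend, 873 with the replicate block, and 81 (without replicate 1 of WT) to 330 with 1 array left out. For the array labelled H1L against WT, 46, it was 27 with a pseudocount of 1, 4 without a filter, 0 without a trend in limma (1559 at an unadjusted p under 0.05), 121 with the replicate block, and 2 (without replicate 1 of WT) to 127 (without replicate 2 of H1R) with 1 array left out. For H1L against H1R, 1, it was 2 after quantile normalization, 0 without a trend in limma (1334 at an unadjusted p under 0.05), 34 with the replicate block, and 0 (without replicate 1 of WT, 1117 at an unadjusted p under 0.05) to 32 (without replicate 2 of H1R) with 1 array left out. The cause of these shifts was not tested. The members' median log2 difference ranged over the alternatives from -0.175 to 0.164 for H1R against WT, from -0.146 to 0.204 for H1L against WT and from -0.143 to 0.146 for H1L against H1R, so it has no settled sign. Beyond BAK1 and PDCD4 for H1R against WT, the block changed no member's call. Signals near background limit FAS, BCL2A1 and the 4 members below it.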
